A study of Arabidopsis with 12 samples.

Results

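The genes described here are 50 auxin signalling genes of Arabidopsis, out of 32833 genes in the deposited table: the 29 Aux/IAA genes, 15 ARF genes and the 6 TIR1/AFB genes. They were chosen by family membership, with earlier results of these data known. The ARF genes here are ARF1 to ARF11 and ARF16 to ARF19. All 50 were found by locus, and the name of each stood beside that locus in RefSeq (TAIR10.1). Transcript levels came from RNA-seq of whole seedlings, in 4 groups of 3 libraries. The bzip59 groups carried the insertion line SALK_024459 in the transcription factor gene bZIP59 and either received shade for 2 h or stayed in white light. The Col-0 wild-type groups were treated in the same ways. Before that, all seedlings had spent 7 days in white light without a dark period, and shade was light with the R/FR ratio at 0.65. The labels name 1 mutant line. They leave unsaid whether replicate libraries were of separately grown seedlings, so p-values cover only the spread among these libraries.

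Auxin acts as a molecular glue between receptor and repressor proteins. TIR1/AFB proteins are the F-box subunits of SCF ubiquitin ligases, and with an Aux/IAA protein they form the auxin receptor, which marks the Aux/IAA protein for degradation. Aux/IAA proteins hold ARF transcription factors in check by recruiting TOPLESS corepressors, so their loss frees the ARFs, of which class A members activate genes and class B and C members mostly repress them. Many Aux/IAA genes are themselves targets of auxin and give the pathway a negative feedback. In shade, PIF transcription factors are released from phytochrome B and raise auxin synthesis, and IAA19 and IAA29 are known PIF targets in the growing seedling.

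Levels are given in TPM, a transcript's share of its library scaled to a fixed total, which is corrected for transcript length and allows genes to be compared with each other. Differences are log2 changes of TPM + 1, shade over white light or bzip59 over Col-0, and they understate the change of genes with low levels. A gene was called when its adjusted p from limma was below 0.05, over the 19693 genes whose mean over the 12 libraries reached 1 TPM. The depth behind the values is unknown. The median 95% confidence interval of a change between groups was 0.41 wide on either side, and that of a difference between 2 shade responses 0.58. Between 18950 and 19689 genes reached 1 TPM per library. bZIP59 itself had 7.33 ± 1.1 TPM in bzip59 shade and 4.15 ± 1.20 TPM in bzip59 white light, against 23.1 ± 3.23 TPM in Col-0 shade and 20.6 ± 2.71 TPM in Col-0 white light (SD, n = 3 each). The 5 green tissue markers were above 1 TPM in all 12 libraries, as were 4 of 6 root markers, and none of the 6 was at 0 in every library. In such whole seedlings, fewer cells of a type and less RNA per cell cannot be told apart.

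The summed level of the Aux/IAA family was higher in shade in both genotypes. The 29 genes together had 2518, 2120 and 2604 TPM in bzip59 shade, against 958, 997 and 1004 TPM in bzip59 white light, a ratio of means of 2.45. In Col-0 the sums were 2115, 2410 and 2412 TPM in shade, against 1013, 1052 and 1117 TPM in white light, a ratio of 2.18. Every shade library lay above every white-light library. IAA2 and IAA7, neighbours on chromosome 3, accounted for 51.4% of the difference in bzip59 and 50.7% in Col-0. These sums are descriptions and carry no test.

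The ARF and TIR1/AFB sums in shade lay closer to those in white light. The 15 ARF genes summed to 255, 247 and 272 TPM in bzip59 shade, against 228, 145 and 201 TPM in bzip59 white light. In Col-0 they summed to 268, 209 and 232 TPM in shade, against 249, 249 and 230 TPM in white light. The ratios were 1.35 in bzip59 and 0.98 in Col-0. Without the second white-light library of bzip59, which was the lowest of its group for 20 of the 21 ARF and TIR1/AFB genes, the bzip59 ratio was 1.20. The 6 receptor genes summed to 140 ± 3.18 TPM in bzip59 shade and 115 ± 26.2 TPM in bzip59 white light, and to 127 ± 15.8 TPM in Col-0 shade and 143 ± 2.37 TPM in Col-0 white light (SD, n = 3 each).

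**Figure D1:**
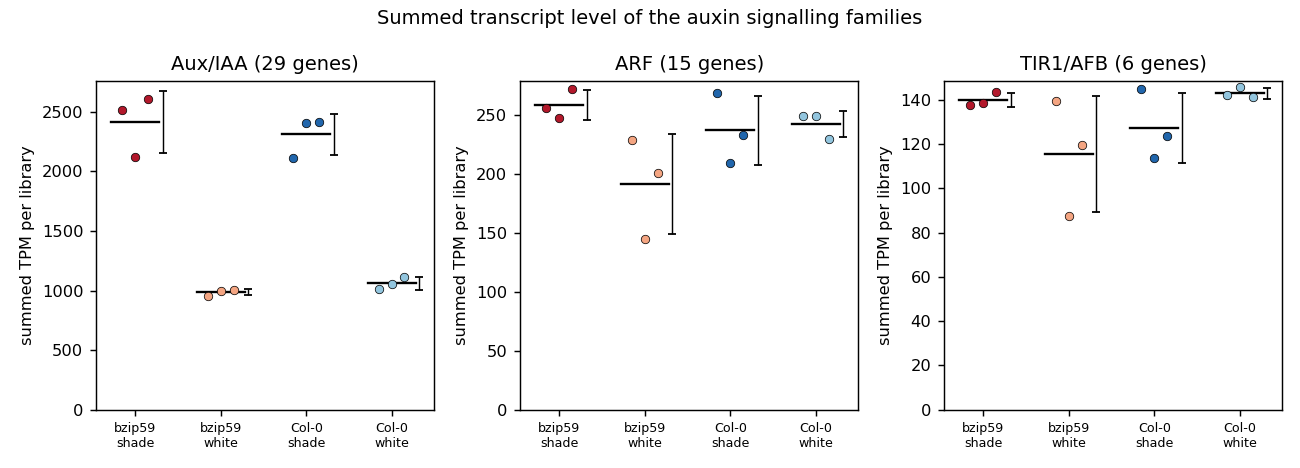
Summed TPM of the 29 Aux/IAA, 15 ARF and 6 TIR1/AFB genes in each library (points), with the mean (line) and SD (bar) of 3 libraries, by genotype and light. The Aux/IAA sums separate shade from white light in both genotypes, at ratios of 2.45 in bzip59 and 2.18 in Col-0, while the ARF sum of the second bzip59 white-light library lies at 145 TPM, below the other 2 of its group.

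Of the 50 genes, 48 passed the level filter, and IAA15 and IAA33 did not. In bzip59, 19 of the 48 rose in shade and none fell, and the median log2 change of the 48 was 0.37, against 0.11 over all genes tested. In that comparison 10.2% of all genes tested were called, 6.49% higher and 3.7% lower. In Col-0, 18 of the 48 rose and none fell, with a median of 0.13 against -0.01 over all genes, where 9.92% of all genes were called, 3.42% higher and 6.5% lower. For 24 of the 48 every bzip59 shade library lay above every bzip59 white-light library, and for 2 below, against 21.5% and 10.5% of all genes. In Col-0 these counts were 19 and 5, against 12.1% and 15.8% of all genes. The calls lay mostly in the Aux/IAA family, with 16 of 27 tested members in each genotype. Among 15 ARF genes 2 rose in bzip59 and 1 in Col-0, and among 6 TIR1/AFB genes 1 rose in each. In both genotypes 17 genes rose, namely 15 Aux/IAA genes, ARF18 and AFB1. The changes of the 48 genes in bzip59 and in Col-0, which share no library, had a Pearson r of 0.978 and a Spearman rho of 0.923, across genes that are not independent of each other. The sign of the change was the same in both genotypes for 34 of the 48. Positive changes were seen for 13 of 15 ARF genes in bzip59 and 5 in Col-0. For the TIR1/AFB genes these counts were 6 of 6 and 2. The share of positive changes over all genes tested is not given here. The median change over all genes was 0.11 in bzip59 and -0.01 in Col-0, and with TMM scaling it was 0.01 and 0.02. Bzip59 white light 2 was the lowest of its group for 20 of the 21 ARF and TIR1/AFB genes. In the plot of all 48 changes the Aux/IAA genes span the widest range.

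**Figure D2:**
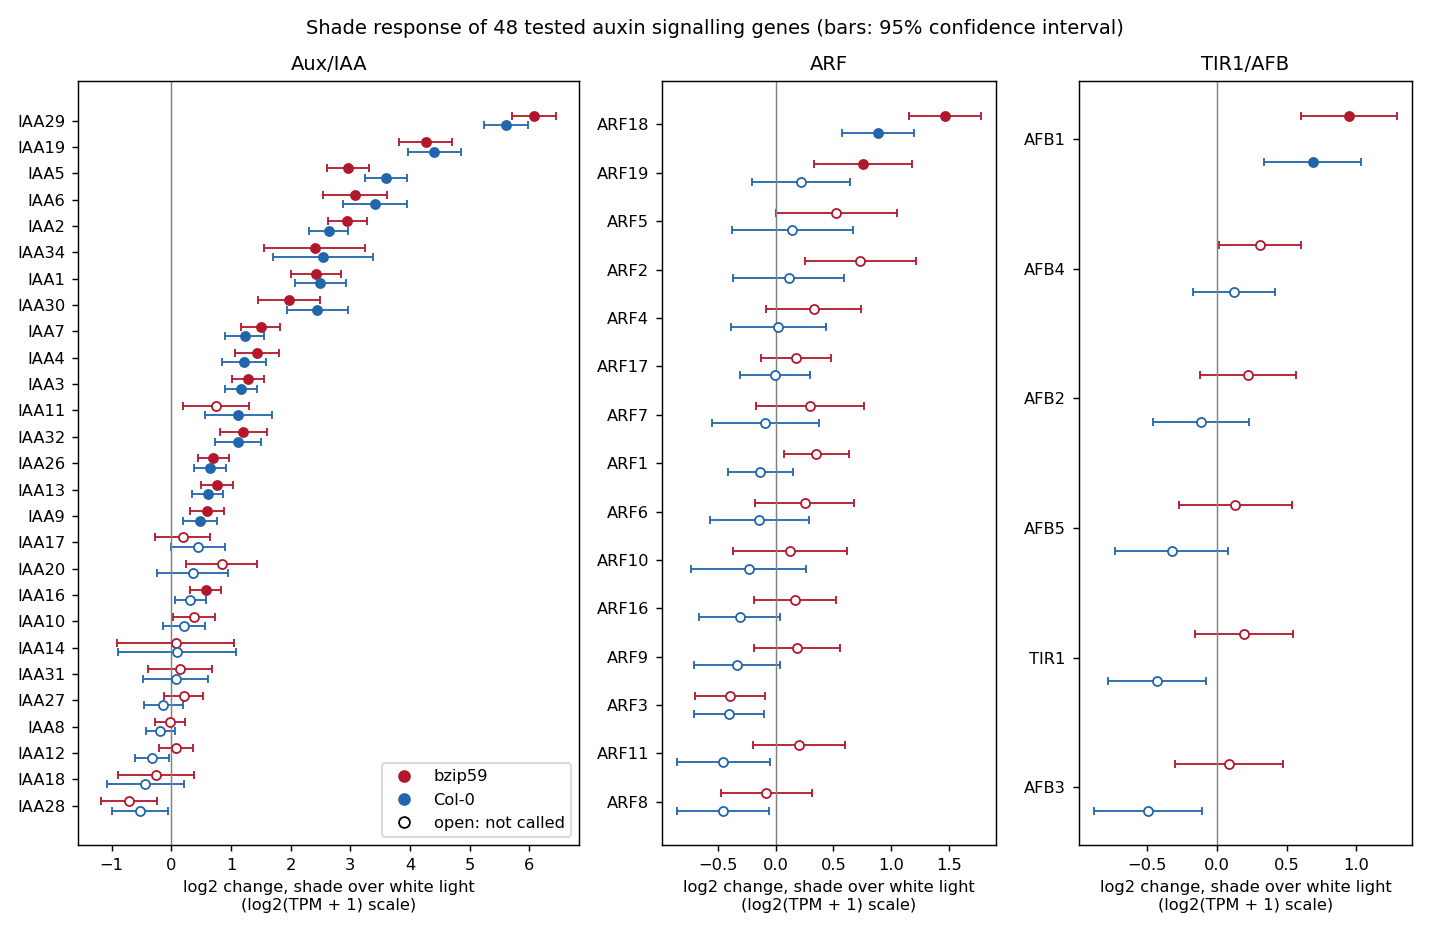
Log2 change of TPM + 1, shade over white light, for the 48 tested genes by family, in bzip59 (red) and Col-0 (blue). Bars are 95% confidence intervals, filled points were called and open points were not, and the horizontal scales differ between panels. IAA29 leads at 6.09 in bzip59 and 5.60 in Col-0, and outside the Aux/IAA family no change exceeds 1.46.

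The same 8 Aux/IAA genes had the largest called changes in both genotypes. IAA29 (AT4G32280) had 135, 103 and 143 TPM in bzip59 shade, against 1.03, 0.58 and 1.01 TPM in bzip59 white light. In Col-0 it had 85.3, 118 and 113 TPM in shade, against 1.26, 1.25 and 1.00 TPM in white light. The ratio of means was 145 in bzip59 and 90.1 in Col-0, and the log2 changes were 6.09 (limma adjusted p = 6.24e-09) and 5.60 (limma adjusted p = 1.6e-08). Near 1 TPM in white light, IAA29 was among the lowest of the family. In shade it reached the range of IAA8 and IAA3 in bzip59, and that of IAA3 but not IAA8 in Col-0.

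IAA19 (AT3G15540), a repressor that limits hypocotyl growth and bending and acts on ARF7, had 126, 93.6 and 145 TPM in bzip59 shade, against 6.67, 4.87 and 4.50 TPM in bzip59 white light. In Col-0 shade it had 113, 135 and 159 TPM, against 5.18, 4.44 and 6.74 TPM in Col-0 white light. The log2 change was 4.26 in bzip59 (limma adjusted p = 2.9e-07) and 4.41 in Col-0 (limma adjusted p = 2.01e-07). Its close relatives IAA5 and IAA6 were near or below 1 TPM in white light. IAA5 (AT1G15580) had 12.3, 11.9 and 17.7 TPM in bzip59 shade, against 0.76, 0.86 and 1.09 TPM in bzip59 white light, and 18.4, 16.4 and 17.1 TPM in Col-0 shade, compared with 0.42, 0.50 and 0.62 TPM in Col-0 white light. For IAA6 (AT1G52830) the values were 11.5, 10.6 and 18.1 TPM in bzip59 shade, against 0.90, 0.55 and 0.55 TPM in bzip59 white light. In Col-0 shade IAA6 had 18.3, 10.7 and 11.9 TPM, against 0.59, 0.09 and 0.41 TPM in Col-0 white light. The libraries of shade and white light were far apart for each of these genes, with log2 changes of 2.95 and 3.08 in bzip59 (limma adjusted p = 8.47e-07 and 2.09e-05) and 3.6 and 3.41 in Col-0 (limma adjusted p = 1.8e-07 and 8.34e-06) for IAA5 and IAA6.

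IAA2 was already abundant in white light, and in shade it was the most abundant transcript of the family. IAA2 (AT3G23030) had 532, 417 and 571 TPM in bzip59 shade, against 55.8, 70.8 and 67.4 TPM in bzip59 white light. Col-0 levels were 434, 538 and 495 TPM in shade, against 74.9, 70.6 and 87.7 TPM in white light. The log2 changes were 2.95 (limma adjusted p = 4.86e-07) and 2.64 (limma adjusted p = 1.35e-06). IAA1 (AT4G14560), of the same small clade, had 88.7, 56.8 and 81.8 TPM in bzip59 shade, against 11.7, 16.8 and 11.3 TPM in bzip59 white light. In Col-0 shade IAA1 had 67.0, 78.3 and 75.7 TPM, against 11, 11.2 and 14.8 TPM in Col-0 white light. Its log2 changes were 2.42 in bzip59 (limma adjusted p = 2.14e-05) and 2.50 in Col-0 (limma adjusted p = 1.66e-05). With IAA3 and IAA4, all 4 members of this clade rose in both genotypes, and their sum was 865 ± 123 TPM in bzip59 shade and 186 ± 26.2 TPM in bzip59 white light, and 835 ± 82.4 TPM in Col-0 shade and 207 ± 13.8 TPM in Col-0 white light (SD, n = 3 each).

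IAA30 and IAA34 belong to the Aux/IAA proteins that lack the canonical degron bound by the receptor, and are therefore not degraded like the others. IAA34 (AT1G15050) had 10.3, 4.97 and 10.4 TPM in bzip59 shade, against 0.66, 0.66 and 0.89 TPM in bzip59 white light. Col-0 levels were 5.03, 14.9 and 15.4 TPM in shade, against 1.25, 0.41 and 1.51 TPM in white light. The shade libraries of each genotype included a low value, yet none overlapped with white light, and the log2 changes were 2.40 (limma adjusted p = 0.00253) and 2.54 (limma adjusted p = 0.00157). IAA30 (AT3G62100) had 11.3, 7.72 and 11.3 TPM in bzip59 shade, against 2.23, 1.80 and 1.40 TPM in bzip59 white light. In Col-0 shade IAA30 had 10.3, 13.4 and 14.9 TPM, against 0.83, 2.37 and 1.58 TPM in Col-0 white light. It rose by a log2 change of 1.98 in bzip59 (limma adjusted p = 0.000387) and 2.45 in Col-0 (limma adjusted p = 9.04e-05). IAA32, another member of this group, rose by 1.21 and 1.11 (limma adjusted p = 0.00147 and 0.00215), at 3.65 ± 0.61 TPM in bzip59 shade and 1.01 ± 0.26 TPM in bzip59 white light, and 3.47 ± 0.60 TPM in Col-0 shade and 1.06 ± 0.17 TPM in Col-0 white light (SD, n = 3 each). Of the 6 genes of the group, IAA20 and IAA31 were tested and not called, and IAA33 was under the filter.

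**Figure D3:**
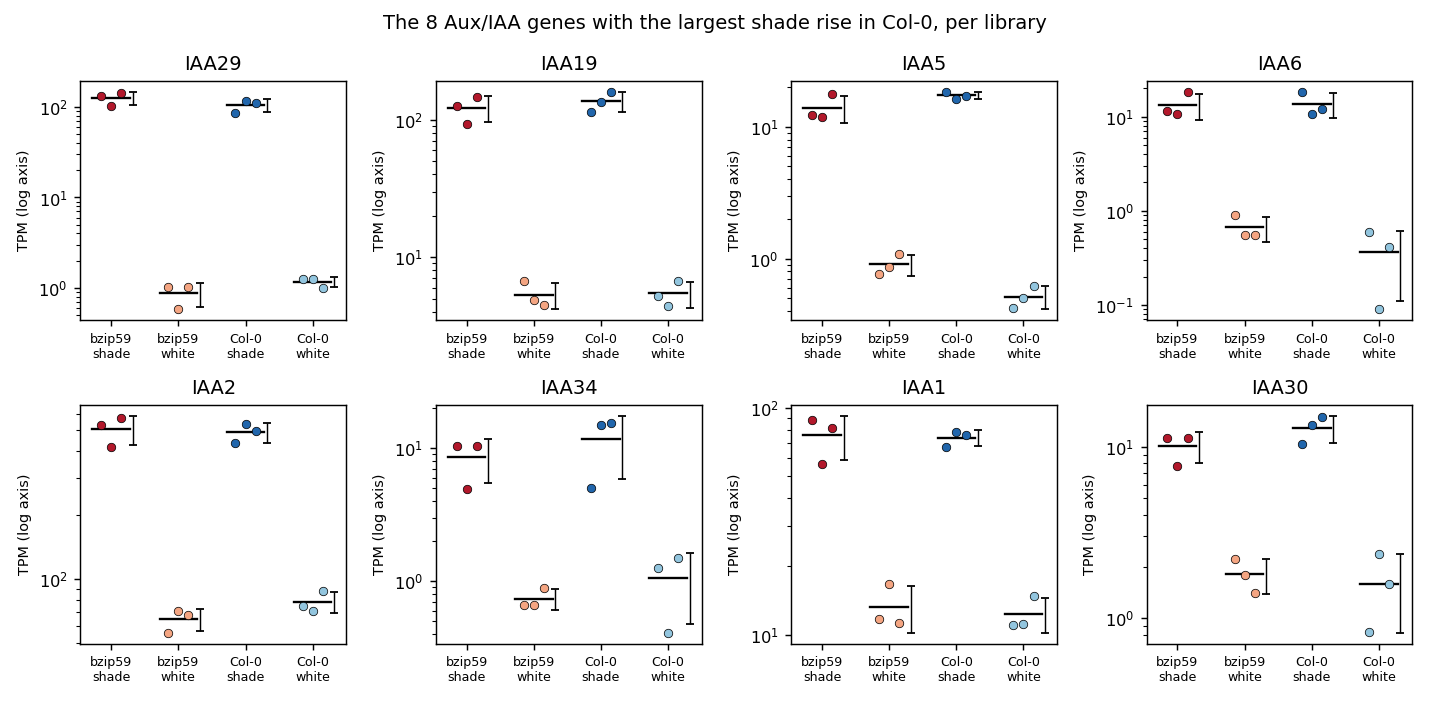
TPM of the 8 Aux/IAA genes with the largest called shade changes in each library (points, log axis), with the mean (line) and SD (bar) of 3 libraries. In all 8 panels each shade library lies above each white-light library of its genotype, and the lowest shade values of IAA34 are 4.97 TPM in bzip59 and 5.03 TPM in Col-0.

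Col-0 shade 1 and bzip59 shade 2, which hold those low IAA34 values, stood apart from the other libraries in the summed level of 8 dehydration response genes. Bzip59 shade 2 had a sum of 796 TPM for these genes, where the other bzip59 shade libraries had 334 and 288 TPM. The sum was 886 TPM for Col-0 shade 1, where the other Col-0 shade libraries had 333 and 384 TPM. RD29A, COR15A, LTI30, ERD10, COR47 and RD20 were each higher in both of these libraries than in every other library, while RAB18 and RD29B were not. RAB18 was the lowest of its group in bzip59 shade 2. In Col-0 shade 1 RAB18 was the highest of its group, though it lay below every Col-0 white-light library. RD29B was the highest of its group in both libraries, though it lay below Col-0 white light 1 in both. Among the 15 Aux/IAA genes called in both genotypes, bzip59 shade 2 was the lowest of its group for 12. Col-0 shade 1 was the lowest of its group for 9 of the 15 and the highest for 6. Without both libraries the changes of IAA34 were 2.71 in bzip59 (limma adjusted p = 0.000144) and 3.02 in Col-0 (limma adjusted p = 6.64e-05), and those of IAA29 were 6.23 and 5.75. The counts were then 18 members higher and 1 lower in bzip59, and 16 higher and 1 lower in Col-0, and the share of all genes called in that fit is not given here. The lower ones were IAA28 in bzip59 and IAA12 in Col-0 (limma adjusted p = 0.0414 and 0.0439).

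The remaining called Aux/IAA genes changed by less. IAA7 (AT3G23050), in which gain-of-function alleles give the auxin-resistant axr2 plants, had 449 ± 66.2 TPM in bzip59 shade and 158 ± 13.4 TPM in bzip59 white light, and 386 ± 66.3 TPM in Col-0 shade and 162 ± 5.21 TPM in Col-0 white light (SD, n = 3 each). IAA7 rose by 1.49 in bzip59 (limma adjusted p = 0.000111) and 1.23 in Col-0 (limma adjusted p = 0.000389). IAA4 rose by 1.44 and 1.22 and IAA3, which is SHY2, by 1.28 and 1.17, in bzip59 and in Col-0 (limma adjusted p between 7.96e-05 and 0.000862). Smaller rises were those of IAA13, at 0.77 and 0.61, and of IAA26, at 0.70 and 0.64 (limma adjusted p between 0.00233 and 0.00819). All of these calls held in each of 23 refits with other settings, though IAA13 and IAA26 changed by less than 1 on the log2 scale. IAA9, among the most abundant members, rose by 0.60 in bzip59 (limma adjusted p = 0.0143) and 0.47 in Col-0 (limma adjusted p = 0.0394). The Col-0 call of IAA9 was lost in 13 refits, with adjusted p up to 0.137, among them those that left out any single shade library of either genotype, Col-0 white light 1 or 3, or bzip59 white light 3. In bzip59 the call of IAA9 was lost without bzip59 shade 3 (limma adjusted p = 0.0584).

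IAA11 and IAA16 passed in 1 genotype each. IAA11 had a log2 change of 0.75 in bzip59 (limma adjusted p = 0.0849) and rose by 1.12 in Col-0 (limma adjusted p = 0.0154). In Col-0 the call was lost without Col-0 shade 2 or 3 or Col-0 white light 1 or 2, with adjusted p up to 0.071, and without Col-0 white light 3 the gene was called in bzip59 (limma adjusted p = 0.0426). IAA16 rose by 0.58 in bzip59 (limma adjusted p = 0.0107), a call that was lost without bzip59 shade 1 or 3 or with TMM scaling, at adjusted p up to 0.0902. In Col-0 its change was 0.32 (limma adjusted p = 0.124). The difference between the genotypes was 0.26 for IAA16 and -0.37 for IAA11 (limma adjusted p = 0.645 and 0.722), so a call in a single genotype is not shown to be a difference between them.

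The other 10 tested Aux/IAA genes passed in neither genotype. IAA8, the third most abundant in Col-0 white light, had 136 ± 5.76 TPM in bzip59 shade and 139 ± 8.50 TPM in bzip59 white light, and 128 ± 6.31 TPM in Col-0 shade and 146 ± 20.2 TPM in Col-0 white light (SD, n = 3 each). IAA28 (AT5G25890), a repressor of lateral root initiation, had the lowest change of the family in both genotypes. It had 23.6, 27.7 and 19.6 TPM in bzip59 shade, against 32.5, 52.0 and 34.7 TPM in bzip59 white light. Col-0 levels were 35.5, 24.7 and 24.1 TPM in shade, against 36.0, 37.3 and 49.1 TPM in white light. Neither pair of groups overlapped, and the changes were -0.71 (limma adjusted p = 0.0579) and -0.53 (limma adjusted p = 0.161). The bzip59 change passed with TMM scaling, at -0.82 (limma adjusted p = 0.0418), without bzip59 white light 1, at -0.84 (limma adjusted p = 0.0358), and without Col-0 shade 1 (limma adjusted p = 0.0434). IAA12, which is BODENLOS and pairs with ARF5 in the embryo, had changes of 0.08 in bzip59 and -0.33 in Col-0 (limma adjusted p = 0.741 and 0.149), and the Col-0 change passed without Col-0 shade 1 (limma adjusted p = 0.0302). IAA14, whose solitary-root allele blocks lateral roots, had changes of 0.07 and 0.10 with intervals of 0.98 on either side, and IAA17, which is AXR3, of 0.19 and 0.45 (limma adjusted p = 0.598 and 0.231). Without Col-0 white light 3 the Col-0 change of IAA17 was 0.67 (limma adjusted p = 0.0472). IAA10, IAA18, IAA20, IAA27 and IAA31 had changes between -0.25 and 0.84 in bzip59 and between -0.43 and 0.36 in Col-0.

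IAA15 and IAA33 were at the bottom of the table. IAA15 had between 0.07 and 0.45 TPM in the shade libraries and between 0 and 0.27 TPM in the white-light libraries. For IAA33 the values were 0.18, 0.00 and 0.55 TPM in bzip59 shade, against 0.61, 0.57 and 0.49 TPM in bzip59 white light, and 0.77, 1.00 and 0.78 TPM in Col-0 shade, compared with 0.61, 0.53 and 0.48 TPM in Col-0 white light.

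ARF18 (AT3G61830), a class B member and so grouped with the repressor ARFs, was the ARF gene with the largest change. It had 24.2, 18 and 24.8 TPM in bzip59 shade, against 7.49, 7.34 and 7.28 TPM in bzip59 white light. Col-0 levels were 19.1, 20.7 and 22.9 TPM in shade, against 10.3, 12.6 and 9.77 TPM in white light. ARF18 rose by 1.46 in bzip59 (limma adjusted p = 9.51e-05) and 0.89 in Col-0 (limma adjusted p = 0.00218), and both calls held in all 23 refits. ARF19 (AT1G19220), a class A activator that acts with ARF7 in auxin responses of roots and hypocotyls, had 6.36, 7.16 and 7.72 TPM in bzip59 shade, against 5.07, 2.45 and 4.16 TPM in bzip59 white light. It rose by 0.76 in bzip59 (limma adjusted p = 0.0304), and the call was lost in 9 of 23 refits, with adjusted p up to 0.121. Of these, 5 left out bzip59 shade 1, 2 or 3 or bzip59 white light 2 or 3. The others were those with no filter, with 2 groups alone, without both white-light libraries numbered 2, and without Col-0 shade 1 and bzip59 shade 2. In Col-0 ARF19 had 7.35, 5.66 and 6.46 TPM in shade, against 5.91, 4.75 and 5.66 TPM in white light, which overlapped, with a change of 0.22 (limma adjusted p = 0.571).

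The other 13 ARF genes were not called. ARF7 and ARF5, the activators mutated in nph4 and monopteros, had log2 changes of 0.30 and 0.52 in bzip59 and of -0.09 and 0.14 in Col-0. In RefSeq ARF7 overlaps AT5G20720, which had 714 TPM in bzip59 shade and 692 TPM in bzip59 white light. In Col-0, AT5G20720 had 716 TPM in shade and 646 TPM in white light. Reads of the overlap cannot be told apart without strandedness, so the ARF7 values are uncertain. ARF6 and ARF8, activators with roles in hypocotyl growth and flower maturation, had changes of 0.25 and -0.08 in bzip59 and of -0.14 and -0.46 in Col-0. ARF3 (AT2G33860), also known as ETTIN, was the ARF gene with lower values in shade in both genotypes without overlap, at 5.68, 5.37 and 6.91 TPM in bzip59 shade, against 8.58, 7.41 and 8.49 TPM in bzip59 white light. In Col-0 shade ARF3 had 5.16, 5.08 and 5.92 TPM, against 6.61, 8.75 and 7.08 TPM in Col-0 white light. Its changes were -0.39 and -0.40 (limma adjusted p = 0.0959 and 0.0965). In bzip59 it passed with TMM scaling, at -0.50 (limma adjusted p = 0.0348), and with quantile normalization, at -0.53 (limma adjusted p = 0.0353). ARF2, the most abundant ARF, had a change of 0.73 in bzip59 (limma adjusted p = 0.0563). It passed there with TMM scaling, at 0.62 (limma adjusted p = 0.0447), with a mean of at least 5 TPM (limma adjusted p = 0.0469), and without bzip59 white light 1, at 0.96 (limma adjusted p = 0.0119). ARF1 and ARF5 also passed in bzip59 without that library (limma adjusted p = 0.0328 and 0.0155). In Col-0, ARF9 passed as lower without Col-0 shade 1, and ARF11 without Col-0 white light 3 (limma adjusted p = 0.041 and 0.0432). The 3 class C genes ARF10, ARF16 and ARF17 had changes between 0.12 and 0.18 in bzip59 and between -0.31 and -0.01 in Col-0.

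AFB1 (AT4G03190), an F-box receptor known for fast, non-transcriptional auxin responses of roots, was the receptor gene that rose. It had 25.4, 25.9 and 27.0 TPM in bzip59 shade, against 16.3, 10.3 and 13.2 TPM in bzip59 white light. In Col-0 it had 23.4, 21.9 and 24.9 TPM in shade, against 15.7, 11.7 and 15.3 TPM in white light. Every shade library lay above every white-light library, and the changes were 0.95 (limma adjusted p = 0.00319) and 0.69 (limma adjusted p = 0.0169). The Col-0 call was lost without Col-0 shade 3, without Col-0 white light 2, and without Col-0 shade 1 and bzip59 shade 2 together, with adjusted p up to 0.0798. In RefSeq the AFB1 locus overlaps the long non-coding gene AT4G04455, whose level was 51.5 TPM in bzip59 shade and 26.1 TPM in bzip59 white light, and 54.0 TPM in Col-0 shade and 33.4 TPM in Col-0 white light. AT4G04455 changed by 0.94 and 0.68 (limma adjusted p = 0.0065 and 0.0317), much like AFB1. Strandedness was not stated, so reads of these genes cannot be told apart here and the AFB1 values are uncertain.

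TIR1 (AT3G62980) had 29.6, 30.1 and 31.2 TPM in bzip59 shade, against 32.7, 19.7 and 28.4 TPM in bzip59 white light, which overlapped. In Col-0 it had 29.9, 24.0 and 27.9 TPM in shade, against 36.6, 38.3 and 35.5 TPM in white light, which did not overlap. The changes were 0.19 in bzip59 and -0.42 in Col-0 (limma adjusted p = 0.461 and 0.133). The Col-0 change passed with quantile normalization, at -0.43 (limma adjusted p = 0.0423), and without bzip59 white light 2 (limma adjusted p = 0.0219). AFB3, a close relative of AFB2, had changes of 0.09 and -0.49 (limma adjusted p = 0.773 and 0.11), and the Col-0 change passed without Col-0 shade 1, at -0.64 (limma adjusted p = 0.042), and with quantile normalization, at -0.47 (limma adjusted p = 0.0491). AFB2, AFB4 and AFB5 had changes between 0.13 and 0.31 in bzip59 and between -0.32 and 0.12 in Col-0.

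**Figure D4:**
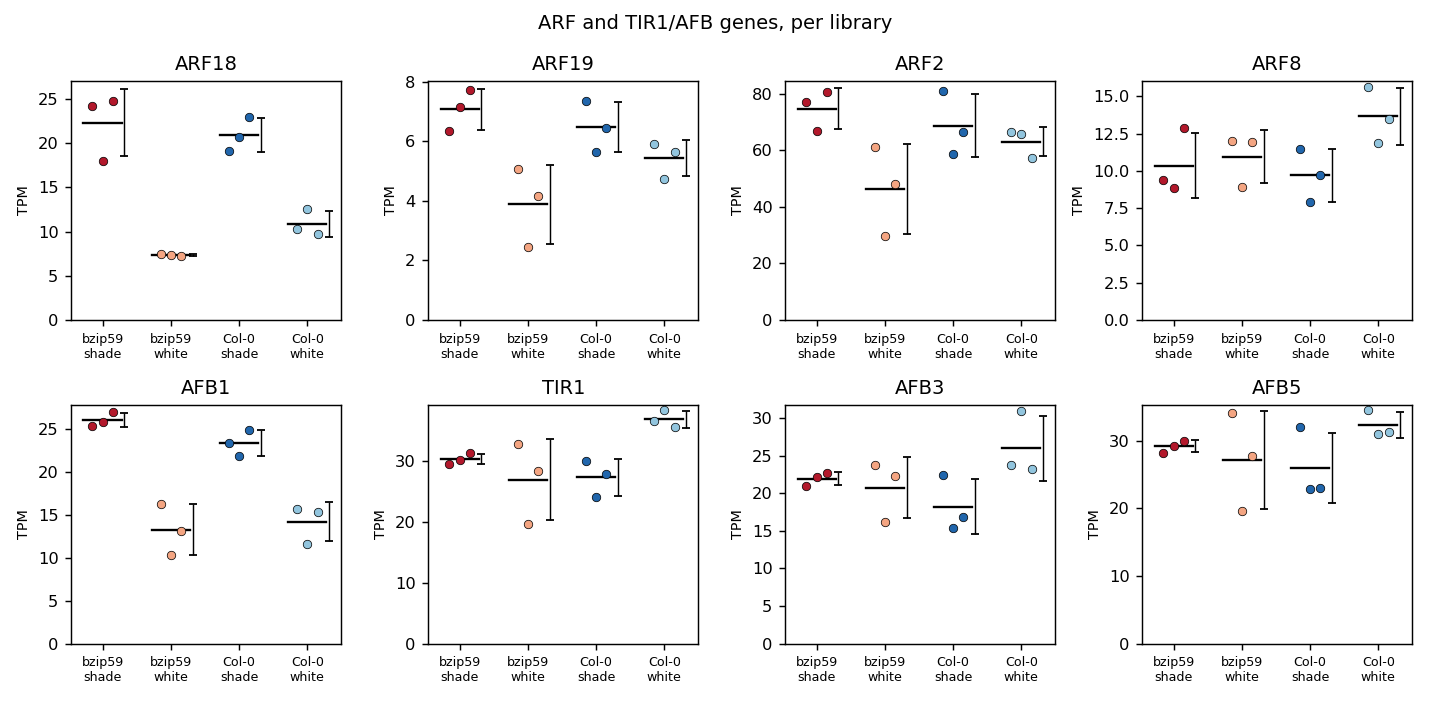
TPM of 4 ARF and 4 TIR1/AFB genes in each library (points), with the mean (line) and SD (bar) of 3 libraries, by genotype and light. ARF18 and AFB1 separate shade from white light in both genotypes, and bzip59 white light 2 gives the lowest of its group for all but ARF18 among these 8 genes.

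Within the bzip59 white-light group, deviations from the mean were related to gene length. In bzip59 white light 2 the deviations of 19629 genes from their group means had a Spearman correlation of -0.574 with gene length, against 0.443 and 0.341 in the other libraries of that group, and between -0.265 and 0.218 in the other groups. The median gene length was 4530 bases for ARF genes, 2953 for TIR1/AFB genes, 1740 for Aux/IAA genes and 2316 over all genes with a length. Bzip59 white light 2 was the lowest of its group for 14 of 15 ARF genes and 6 of 6 TIR1/AFB genes, but for 6 of the 15 Aux/IAA genes called in both genotypes. Among the Col-0 shade libraries, Col-0 shade 2, with a length correlation of -0.265, was the lowest for 16 of the 21 ARF and TIR1/AFB genes, and Col-0 shade 1 was the highest for 15. The part of these trends in the ARF and TIR1/AFB values was not tested. Without both white-light libraries numbered 2, the counts were 18 called members in bzip59 and 17 in Col-0. The share of all genes called in that fit is not given here.

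No auxin signalling gene was called between bzip59 and Col-0 in either light. In white light 0 of 48 were called by limma, where 0.0254% of all genes were called, and 8 had an unadjusted p below 0.05, which is 16.7% against 15.5% of all genes. The median difference of the 48 was -0.21, against -0.16 over all genes, and with TMM scaling the median over all genes was -0.02. For 9 of the 48 every bzip59 library lay below every Col-0 library, which is 18.8% against 15.6% of all genes, and for 1, IAA5, every bzip59 library lay above, against 2.76% of all genes. The lowest adjusted p was that of ARF18, at a difference of -0.50 (limma adjusted p = 0.224). In shade 0 of 48 were called, where 0.0406% of all genes were called, and the median difference was 0.06. The libraries did not overlap for ARF11 and AFB1, both higher in bzip59, where 4.57% of all genes were higher and 5.19% lower without overlap. ARF11 was also the 1 member with an unadjusted p below 0.05, against 2.71% of all genes, at a difference of 0.46 (limma adjusted p = 1). It had 14.7, 11.2 and 14.5 TPM in bzip59 shade, against 8.92, 10.4 and 9.14 TPM in Col-0 shade. IAA29 and IAA19 differed by 0.26 and -0.17 in shade, with intervals of 0.37 and 0.44 on either side. Seed storage transcripts, 10 genes of residual seed reserves, summed to 103, 21.3 and 5.32 TPM in bzip59 shade and 277, 112 and 51.8 TPM in bzip59 white light, against 9.52, 5.83 and 4.11 TPM in Col-0 shade and 18.7, 15.3 and 12.6 TPM in Col-0 white light. Their part in these comparisons was not tested.

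The shade responses of bzip59 and Col-0 were compared by the interaction, the change in bzip59 less that in Col-0. None of the 48 was called, where 0% of all genes were called, and 7 had an unadjusted limma p below 0.05, which is 14.6% against 8.01% of all genes. The median over the 48 was 0.26, against 0.15 over all genes, and with TMM scaling the median over all genes was 0.02. The 4 smallest p-values belonged to ARF18, at 0.58, IAA5, at -0.64, TIR1, at 0.62, and ARF1, at 0.48 (limma adjusted p = 0.586, 0.586, 0.586 and 0.591). ARF1 had 32.4, 35.2 and 33.8 TPM in bzip59 shade, against 30.9, 21.6 and 27.2 TPM in bzip59 white light, and 30.9, 29.2 and 33.7 TPM in Col-0 shade, compared with 33.3, 36.6 and 33.2 TPM in Col-0 white light. All 4 failed in each of 22 refits, with adjusted p between 0.282 and 0.856. Their 95% intervals were between 0.40 and 0.50 wide on either side.

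The order of the Aux/IAA transcripts changed between the lights. In white light IAA7, IAA8, IAA16 and IAA9 were the 4 most abundant in both genotypes, with means between 123 and 158 TPM in bzip59 and between 132 and 162 TPM in Col-0, and the ranges of neighbours in that order overlapped. In shade IAA2 came first, at 507 ± 80.3 TPM in bzip59 and 489 ± 52.0 TPM in Col-0, and IAA7 second, at 449 ± 66.2 TPM in bzip59 and 386 ± 66.3 TPM in Col-0 (SD, n = 3 each). The ranges of IAA2 and IAA7 overlapped in bzip59 shade and did not overlap in Col-0 shade. IAA29 was in rank 7 in bzip59 shade, against rank 24 in bzip59 white light, and in rank 8 in Col-0 shade, against rank 22 in Col-0 white light. IAA19 was in rank 8 in bzip59 shade and 6 in Col-0 shade, against rank 18 in both white-light groups. Among ARF genes ARF2 and ARF1 held the top ranks in all 4 groups, and ARF18 was in rank 3 in both shade groups, against rank 11 in bzip59 white light and 10 in Col-0 white light. The ranges of ARF18 and ARF6 overlapped in bzip59 shade, and those of ARF2 and ARF1 in bzip59 white light. Among the receptors TIR1 and AFB5 had the 2 highest means in each group, and AFB4 was the lowest, with means between 6.19 and 8.72 TPM. In Col-0 shade and bzip59 white light the ranges of all receptors but AFB4 overlapped from neighbour to neighbour. In bzip59 shade and Col-0 white light TIR1 and AFB5 lay above the ranges of the other receptors. In the plot of levels in shade against white light, IAA29, IAA6, IAA5 and IAA19 lie far above the line of equal levels, as does the abundant IAA2, while the low-expressed IAA31 lies near it.

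**Figure D5:**
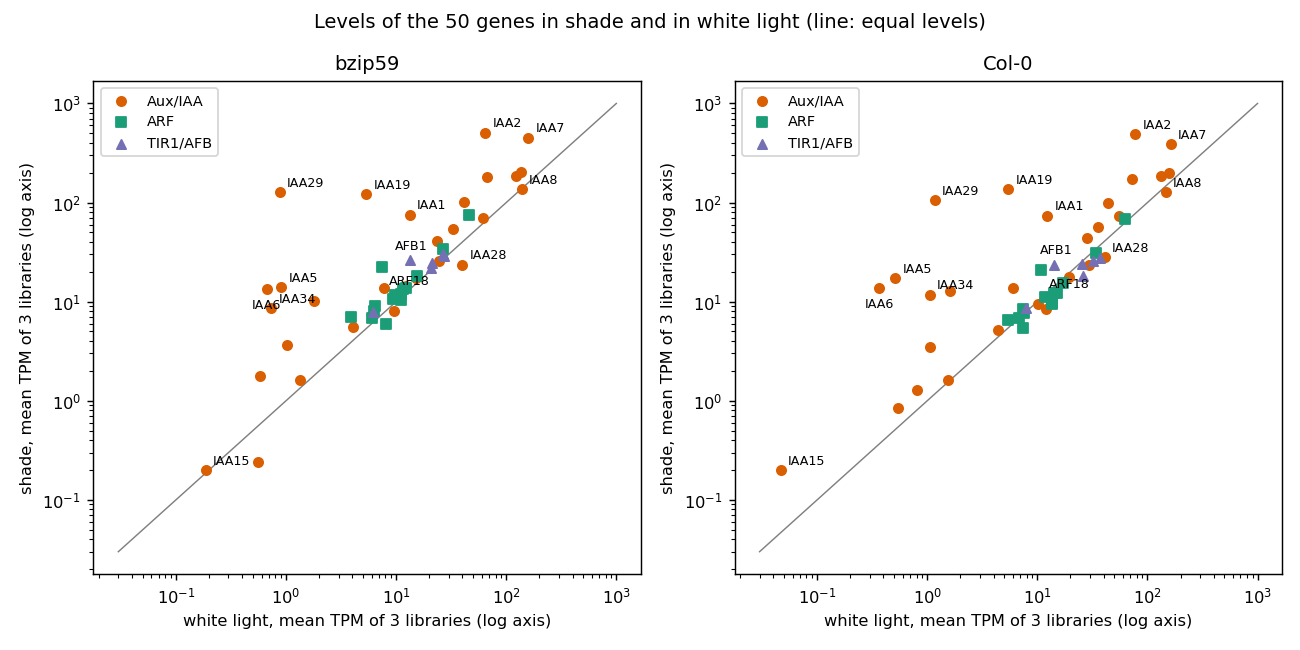
Mean TPM of 3 libraries in shade (vertical, log axis) against white light (horizontal, log axis) for the 50 genes, in bzip59 (left) and Col-0 (right). The line marks equal levels, most ARF and TIR1/AFB genes lie near it, and IAA29 lies highest above it, at 127 against 0.87 TPM in bzip59 and 105 against 1.17 TPM in Col-0.

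Several of the members lie next to each other in the genome. IAA1 and IAA14, IAA2 and IAA7, and IAA3 and IAA17 are neighbouring pairs on chromosomes 4, 3 and 1. Both genes of the IAA2 and IAA7 pair rose in both genotypes, while IAA14 and IAA17 were not called beside IAA1 and IAA3. In RefSeq 16 of the 50 genes overlap another locus. Apart from AT4G04455 at AFB1, the overlapping loci of called members that were themselves tested, those of IAA3, IAA5, IAA11, IAA32 and IAA34, were not called in shade in either genotype, nor was AT4G03180 at AFB1. AT4G29070, which overlaps IAA27, fell by 0.51 in bzip59 and 0.91 in Col-0 (limma adjusted p = 0.0389 and 0.00169), and IAA27 was not called.

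Transcript models add detail for 29 of the genes, since 21 have a single model and the 50 genes have 97 in all. Shares of models are estimates of unknown depth and were picked after their values were seen. The third model of IAA7 made up 19.5% ± 1.6 of its level in bzip59 shade and 12% ± 2.4 in bzip59 white light, and 23.7% ± 2.2 in Col-0 shade and 15.6% ± 5.1 in Col-0 white light (SD, n = 3 each). For IAA8 the third model stood at 6.06, 0 and 0 TPM in bzip59 shade, against 7.95, 13.7 and 5.47 TPM in bzip59 white light. In Col-0 it stood at 0, 5.89 and 2.87 TPM in shade, against 16.7, 58.4 and 20.5 TPM in white light, so that Col-0 white light 2 lay far above the others of its group. The first model of ARF6 took 42.8% in bzip59 shade and 29.2% in bzip59 white light, and 46.9% in Col-0 shade and 27.9% in Col-0 white light, with an SD of 15 percentage points in the last group. The first model of IAA32 had 1.66, 1.08 and 2.06 TPM in bzip59 shade, against 0, 0 and 0.28 TPM in bzip59 white light. It had 0.98, 0.77 and 0.95 TPM in Col-0 shade and was listed at 0.15, 0 and 0 TPM in Col-0 white light, so a single library of each white-light group held all of its level there. The second model of ARF3 took 20.5% ± 5.2 in bzip59 shade and 41.0% ± 12 in bzip59 white light, and 13.8% ± 13 in Col-0 shade and 28.8% ± 5.3 in Col-0 white light (SD, n = 3 each).

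Genes that act beside these families differed in how they behaved. Of 16 auxin output genes, which are GH3, SAUR, HAT2 and LBD genes, 15 were tested, and 12 rose in bzip59 and 13 in Col-0, with none lower and medians of 1.96 and 1.84. Over all genes tested 6.49% were called higher in bzip59 and 3.42% in Col-0, with medians of 0.11 and -0.01. GH3.3, whose enzyme conjugates auxin to amino acids, had 94.8 ± 8.06 TPM in bzip59 shade and 3.75 ± 1.33 TPM in bzip59 white light, and 80.9 ± 9.36 TPM in Col-0 shade and 4.10 ± 0.47 TPM in Col-0 white light (SD, n = 3 each). GH3.3 rose by 4.37 and 4.0 (limma adjusted p = 1.19e-07 and 2.01e-07). HAT2, an auxin-induced homeodomain gene, rose by 2.38 and 2.20, and GH3.5 by 2.79 and 2.18 (limma adjusted p between 3.07e-06 and 2.29e-05). SAUR22 and SAUR23, of a clade that promotes cell expansion, rose by 3.44 and 2.49 in bzip59 and by 3.5 and 3.06 in Col-0 (limma adjusted p between 8.04e-06 and 3.78e-05). SAUR15 passed in Col-0, at 1.42 (limma adjusted p = 0.028), and not in bzip59, at 0.67 (limma adjusted p = 0.261). The Col-0 call was lost without Col-0 shade 2 or 3, without Col-0 white light 1 or 2, without Col-0 shade 1 and bzip59 shade 2 together, and without the level filter, with adjusted p up to 0.103. GH3.6, another called gene of the list, lost its Col-0 call in 3 refits, among them that without Col-0 shade 3, with adjusted p up to 0.0608. None of the 15 was called in the interaction, where the lowest limma adjusted p was 0.61.

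No tested gene of the shared machinery, the corepressors and the SCF complex, was called in shade. Over all genes tested 10.2% were called in bzip59 and 9.92% in Col-0, so 0 called among so few genes is near that share. None of the 4 tested TOPLESS corepressor genes passed in either genotype, with medians of 0.52 in bzip59 and -0.04 in Col-0, and TPL had 53.4 ± 3.59 TPM in bzip59 shade and 35.8 ± 10.7 TPM in bzip59 white light, and 45.6 ± 5.81 TPM in Col-0 shade and 42.9 ± 2.56 TPM in Col-0 white light (SD, n = 3 each). None of 9 genes of the SCF complex and its regulators, among them ASK1, CUL1 and AXR1, passed, with medians of 0.27 and 0.16. The lowest limma adjusted p in bzip59 was 0.0664 for the corepressors and 0.0553 for the SCF list. In bzip59, 2 of the 4 and 6 of the 9 had all shade libraries above all white-light libraries, against 21.5% of all genes. In Col-0 these counts were 0 and 2, against 12.1%. Bzip59 white light 2 was the lowest of its group for each of the 4 tested corepressor genes. The share of all genes for which this library was the lowest is not given here. Of 14 genes for small RNAs of this pathway, which are MIR160, MIR167, MIR390, MIR393 and TAS3 genes, 6 were tested. TAS3, whose small RNAs target ARF2, ARF3 and ARF4, had 49.5 ± 4.55 TPM in bzip59 shade and 70.7 ± 11.6 TPM in bzip59 white light, and 44.3 ± 2.33 TPM in Col-0 shade and 76.5 ± 28 TPM in Col-0 white light (SD, n = 3 each). It fell by 0.72 in Col-0 (limma adjusted p = 0.0497), a call lost in 15 of 23 refits with adjusted p up to 0.136, and had a change of -0.50 in bzip59 (limma adjusted p = 0.151). Leaving out any single shade library, Col-0 white light 2 or bzip59 white light 1 or 3 ended the Col-0 call, and without Col-0 white light 2 the change was -0.44 (limma adjusted p = 0.115). MIR160A, MIR160C, MIR167C, MIR393A, MIR390A and MIR390B were listed at 0 in every library.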

How the data were processed

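Libraries were made for Illumina sequencing from oligo(dT)-selected RNA of whole seedlings with random priming, per the labels' protocols, which state no strandedness. Per the submitters' processing notes, fastp, cutadapt, HISAT2 and DESeq2 were used with TAIR10, with no versions given, and the TPM method is not given in the sources used here. Values in the deposited table are TPM, 1 for each transcript, per the file headers. Here 54013 transcripts were added up into 32833 genes, and 32548 had their locus tag in RefSeq. The 4 group-mean columns equalled the library means within 3.3e-06 TPM and were not used. Library sums ran from 937165 to 955765 TPM. Read depth is unknown, so no counting interval is given.

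Genes averaging at least 1 TPM were tested on log2(TPM + 1) with limma 3.58.1 and an intensity trend in R 4.3.3, in 1 fit of 4 group means over all 12 libraries, with 5 contrasts. P-values are two-sided and Benjamini-Hochberg adjusted over all 19693 genes tested, with calls below 0.05. TMM factors were computed from the TPM with the usual trimming of 30% of ratios and 5% of levels. Family sums, level ranks and transcript shares are descriptions.

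Values in every library are given for the 8 called members with the largest change in each shade comparison and the 4 members with the smallest interaction p. Members outside that rule were shown in full after their values were seen. The members and gene lists were chosen with earlier results of these data known. Alternatives were pseudocounts of 0.1 and 0.5, no filter, a mean of at least 5 TPM, TMM or quantile scaling, no trend, a replicate block, fits of 2 groups alone, a cut at a log2 change of 1, leaving out each of the 12 libraries, and leaving out both white-light libraries numbered 2 or Col-0 shade 1 with bzip59 shade 2. The same alternatives were run for the other gene lists after the data were seen. Promoter and protein sequences of the members were not analysed here, and no coordinates are given.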

Additional observations from a re-analysis of the deposited data

How the results depend on the processing

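Depth is unknown, so the precision of genes near 1 TPM, such as IAA29, IAA5, IAA6, IAA32 and IAA34 in white light, cannot be set from counts. The number of members called stayed within 1.5 times its value in every setting run. The share of all genes called in each refit is not given here, so the counts of refits cannot be set against it. In the fits that leave out a library it was between 16 and 23 in bzip59 shade and between 15 and 20 in Col-0 shade, and 0 in both genotype comparisons and the interaction. A cut at an absolute log2 change of 1 left 13 called members in each shade comparison, ending the calls of IAA9, IAA13, IAA26 and AFB1 in both genotypes, of IAA16 and ARF19 in bzip59 and of ARF18 in Col-0. In the 23 refits, which do not include that cut, 16 of the 19 calls in bzip59 held throughout, as did 15 of the 18 in Col-0, and none reversed. The calls lost in a refit were ARF19, IAA16 and IAA9 in bzip59 and IAA9, IAA11 and AFB1 in Col-0. IAA32 had no value under the filter of at least 5 TPM. With TMM scaling the family sum ratios were 2.25 in bzip59 and 2.25 in Col-0 for Aux/IAA, 1.26 and 1.00 for ARF, and 1.13 and 0.91 for TIR1/AFB.

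With the replicate number as a block, 20 members were called in bzip59 shade and 17 in Col-0 shade, and 0 in the genotype comparisons and the interaction. The share of all genes called with the block is likewise not given. The block added ARF2 in bzip59 (limma adjusted p = 0.0298) and ended the call of IAA9 in Col-0. The numbers share no stated origin: of 18 pairs of groups and numbers 3 had a correlation above 0.1, with a range from -0.15 to 0.25, and libraries correlated best with their own number in 15 of 36 cases.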
